A study of Mus musculus with 10 samples.

Results

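The core circadian clock genes were followed through bulk RNA sequencing of the dissected intermediate lobe (IL) of the mouse pituitary, the lobe that is made up mostly of melanotrophs, which produce and cleave proopiomelanocortin (POMC). The 10 genes are Arntl, Clock, Per1, Per2, Per3, Cry1, Cry2, Nr1d1, Nr1d2 and Dbp, and were taken as the rows of the normalised table whose Ensembl identifier carries 1 of these symbols. Each symbol matched 1 row, so that 10 of 29527 genes were selected, and all 10 were among the 17268 genes expressed highly enough to be tested. Samples were ILs from 4 wild-type (WT) mice, from 3 mice homozygous for a null allele of p27 (Cdkn1b, a cyclin-dependent kinase inhibitor; p27-/-) and from 3 p27-/- mice that had also lost 1 copy of Sox2 (p27-/-;Sox2+/-, called compound mutants here), at an age of 2 to 3 months. The p27 allele is a germline null, carried by both mutant groups on a mixed background, males and females were both used, and mice without p27 develop IL tumors. The time of day at which ILs were dissected is not given in the sources used here.

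Mammalian clocks rest on a transcriptional loop. The CLOCK and BMAL1 proteins (BMAL1 is the product of Arntl) bind E-boxes and activate the Per and Cry genes, whose products enter the nucleus and repress that activation, so that Per and Cry transcripts rise and fall each day. A second loop runs through Nr1d1 and Nr1d2, which encode the REV-ERB nuclear receptors, repress Arntl and compete with the ROR receptors for the same DNA element. Dbp encodes a bZIP factor that is activated through E-boxes and in turn acts on D-boxes, and its transcript peaks close to that of Nr1d1 and in nearly opposite phase to Arntl in many tissues. The questions addressed were whether the level of any member differed with loss of p27, or with the loss of a copy of Sox2 on top of it, and how the members moved together from mouse to mouse.

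DNA upstream of the members is shown here because these elements define how the loops are wired. RefSeq promoter windows (GRCm38.p6) were found for 9 of the 10 members, in 13 windows, and none was found for Per2. The 250 bases before each start were searched on both strands for the E-box CACGTG, the D-box TTANGTAA, the ROR element TAGGTCA or TGGGTCA and the cAMP response element TGACGTCA. These 4 motifs were present in 6.02%, 2.06%, 5.38% and 1.55% of all 32851 windows, respectively. Some windows lie partly or wholly inside the annotated span of their gene, and those of Arntl and Clock do so wholly. Not all searched bases were therefore outside the genes. A match was found in 3 of the 13 windows. Relative to the start, an E-box began at position -60 in Cry1 and another at -166 in the first Per1 window, and 2 D-boxes began at -205 and -158 in Per3. Sequences are written 5′ to 3′ on the strand of the gene with motif letters in capitals. Dbp is included as the output gene used as an anchor below and Nr1d1 as the member that followed it most closely, although none of the 4 motifs occurs in the stretches shown for these genes. Except for Per1, only bases outside the annotated span of the gene are given.
Cry1 (chr10:85185055-85185304, minus strand): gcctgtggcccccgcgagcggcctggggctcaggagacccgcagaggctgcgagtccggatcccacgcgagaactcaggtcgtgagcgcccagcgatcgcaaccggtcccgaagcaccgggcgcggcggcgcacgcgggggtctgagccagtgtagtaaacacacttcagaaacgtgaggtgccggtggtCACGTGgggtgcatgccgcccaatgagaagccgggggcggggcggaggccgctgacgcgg
Per1 (chr11:69098773-69098798, plus strand): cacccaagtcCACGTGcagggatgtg
Per3 (chr4:151044708-151044915, minus strand): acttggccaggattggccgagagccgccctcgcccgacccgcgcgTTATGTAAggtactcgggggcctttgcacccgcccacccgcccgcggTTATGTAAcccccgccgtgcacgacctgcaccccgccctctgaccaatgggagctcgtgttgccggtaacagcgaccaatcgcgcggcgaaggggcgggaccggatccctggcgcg
Nr1d1 (chr11:98775378-98775627, minus strand): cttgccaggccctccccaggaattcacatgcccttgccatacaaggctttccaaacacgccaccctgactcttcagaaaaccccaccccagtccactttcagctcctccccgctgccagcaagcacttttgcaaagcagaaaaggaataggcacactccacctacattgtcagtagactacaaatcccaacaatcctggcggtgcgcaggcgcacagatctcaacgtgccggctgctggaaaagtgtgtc
Dbp (chr7:45704997-45705099, plus strand): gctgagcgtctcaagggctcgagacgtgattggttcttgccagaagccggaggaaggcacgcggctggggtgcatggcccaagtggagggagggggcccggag

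Values are the normalised levels that were deposited, on a log2 scale, so a difference of 1 is a doubling. They are not scaled to transcript length, and levels were therefore compared between samples and not between genes. Counts were not used here and the depth behind each value is unknown. Cdkn1b ranged from 8.39 to 8.85 in WT, from 8.04 to 8.27 in p27-/- and from 7.73 to 8.10 in compound mutant samples, without overlap between WT and either mutant. Sox2 lay between 7.34 and 7.75 in WT, between 7.08 and 7.45 in p27-/- and between 6.88 and 7.07 in compound mutant ILs. Pomc, the defining melanotroph transcript, was between 18.00 and 19.00 in every sample, the fourth highest mean of the table. Transcripts from neighboring tissue were also present and varied between ILs, with Prl from 11.40 to 17.54 and the pituicyte marker Scn7a from 9.41 to 11.96. In whole lobes, fewer cells of a type and less RNA per cell cannot be told apart. Xist fell into 2 separate ranges, at 8.78 to 9.29 in 4 samples (WT replicates 3 and 4, p27-/- replicate 2 and compound mutant replicate 1) and at 14.32 to 15.01 in the other 6, and the Y-linked gene Ddx3y was the other way round. Each genotype therefore contained samples of both kinds, called low-Xist and high-Xist below.

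**Figure D1:**
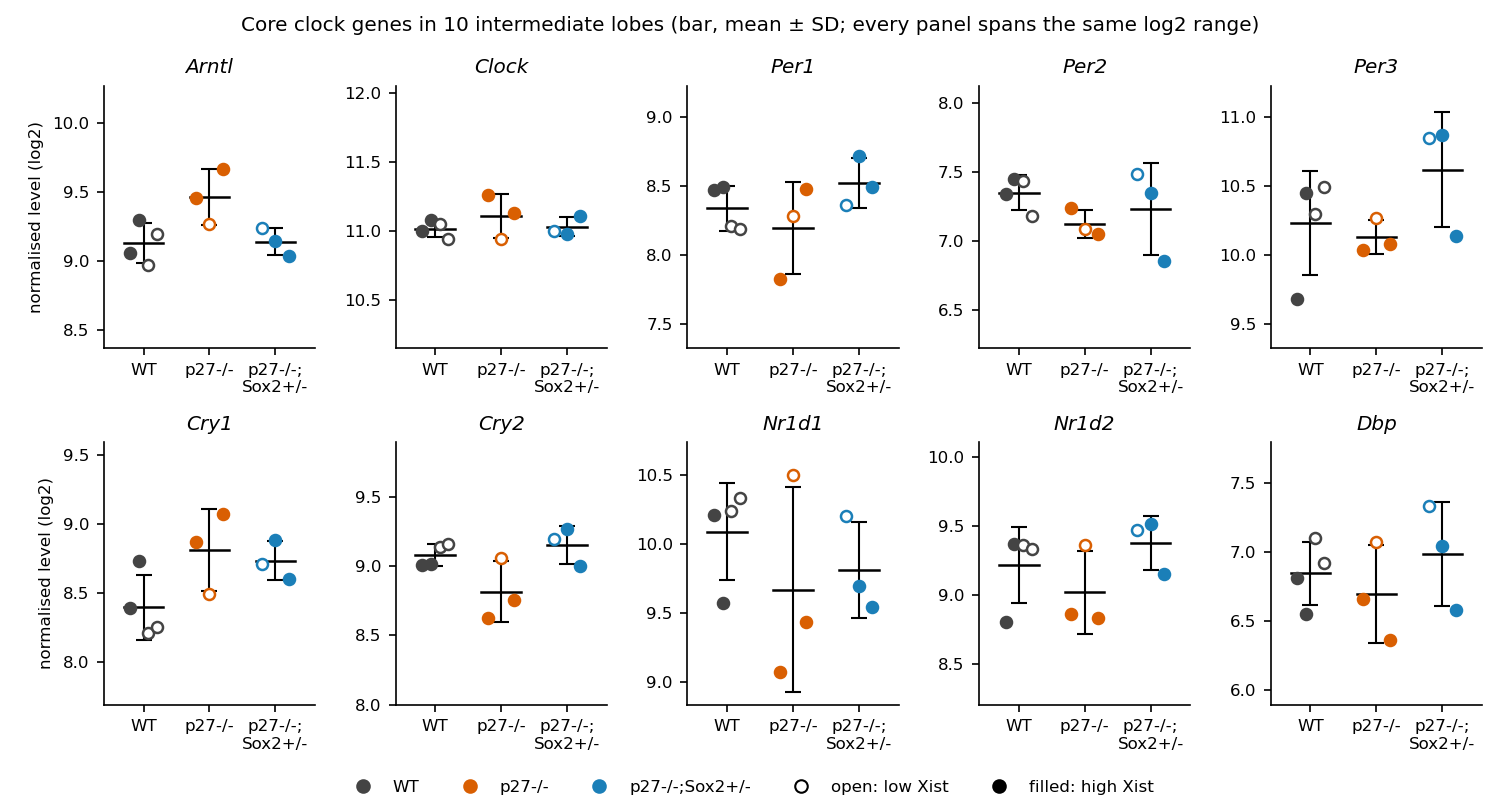
Normalised levels (log2) of the 10 clock genes in each IL sample by genotype, 1 panel per gene, with the mean ± SD of 4 WT, 3 p27-/- and 3 compound mutant samples; all panels cover the same log2 range, open symbols are the 4 low-Xist samples and filled symbols the 6 high-Xist samples. Clock varied over 0.33 and Nr1d1 over 1.43 log2 units, and Arntl is the member with p27-/- samples all above the compound mutant samples.

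No member passed an adjusted p of 0.05 in any of the 3 genotype comparisons (limma, Benjamini-Hochberg adjustment over 17268 genes). In p27-/- against WT, 0 of 10 members were called, against 7.78% of all tested genes. The 2 other comparisons gave 0 of 10 as well, against 2.71% of genes for the compound mutants against WT and 0.145% for the compound mutants against p27-/-. At an unadjusted p under 0.05 the members numbered 3 (Arntl, Cry1 and Cry2), 1 (Cry1) and 3 (Arntl, Cry2 and Per3), respectively, out of 10 each, where 24.1%, 17.8% and 6.65% of all tested genes had such a p. The median difference of the 10 members was -0.15, 0.11 and 0.22, compared with 0.01, 0.01 and 0.00 over all tested genes. Both mutant groups were compared with the same WT samples, and both comparisons that involve p27-/- share those 3 samples.

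Arntl and Clock encode the activators. Arntl (ENSMUSG00000055116, chr7:113178471-113314126) measured 9.06, 9.30, 8.97 and 9.20 in the WT samples, 9.46, 9.27 and 9.67 in p27-/- and 9.24, 9.15 and 9.04 in the compound mutants. The p27-/- samples were the highest, except that p27-/- replicate 2 lay just below WT replicate 2. Arntl was higher in p27-/- than in WT by 0.33 ± 0.11 (SE; 1.26-fold), with an adjusted p of 0.0823 in limma, and between 0.0510 and 0.318 under the alternatives tried. In the compound mutants it was at the WT level, with a difference of 0.01 and a 95% interval of -0.23 to 0.24. All 3 compound mutant samples were below all 3 p27-/- samples, a difference of -0.33 ± 0.12 (adjusted p = 0.542 in limma). Arntl was the sole member whose samples did not overlap in that comparison, where 15.3% of all tested genes did not. No member had separate ranges in p27-/- against WT or in the compound mutants against WT, where 20.6% and 15.0% of genes had.

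Clock (ENSMUSG00000029238, chr5:76209868-76305603) was the steadiest member. Its levels were 11.00, 11.08, 11.05 and 10.94 in WT, 11.26, 10.94 and 11.13 in p27-/- and 11.00, 10.98 and 11.11 in the compound mutants. These ranges overlapped throughout. Relative to WT, Clock differed by 0.09 ± 0.09 in p27-/- and by 0.01 ± 0.09 in the compound mutants (adjusted p = 0.550 and 0.955 in limma), and the 95% intervals left room for at most 0.28 and 0.20. The SD of Clock within genotypes, 0.10, was at percentile 16.2 of all tested genes.

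Among the repressors, Cry1 and Cry2, which encode the cryptochromes, differed in opposite directions between p27-/- and WT. Cry1 (ENSMUSG00000020038, chr10:85131700-85185054) was measured at 8.39, 8.73, 8.21 and 8.25 in WT, at 8.87, 8.49 and 9.07 in p27-/- and at 8.71, 8.88 and 8.60 in compound mutant ILs. Of the 6 mutant samples 3 were above all WT samples, and WT replicate 2 reached into both mutant ranges. Cry1 was 0.41 ± 0.15 higher in p27-/- (1.33-fold, adjusted p = 0.105) and 0.33 ± 0.15 higher in the compound mutants (1.26-fold, adjusted p = 0.253) in limma, and the mutants differed from each other by -0.08, with an interval of -0.42 to 0.26. Without WT replicate 2 the difference between p27-/- and WT was 0.52 and passed the threshold with an adjusted p of 0.0327 in limma. That was the only call of a member under the alternatives tried, over which the adjusted p of this difference reached 0.361.

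Cry2 (ENSMUSG00000068742, chr2:92403646-92434085) gave 9.01, 9.02, 9.14 and 9.16 in WT, 8.63, 9.06 and 8.76 in p27-/- and 9.20, 9.27 and 9.00 in the compound mutants. Replicates 1 and 3 of p27-/- were the lowest of the 10 samples, and p27-/- replicate 2 lay inside the WT range. Cry2 was at -0.27 ± 0.11 in p27-/- relative to WT (0.83-fold, adjusted p = 0.157), and the compound mutants were 0.34 ± 0.12 above p27-/- (1.27-fold, adjusted p = 0.490), both in limma. Their difference from WT, 0.08, had an interval of -0.16 to 0.31.

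The period genes encode the partners of the cryptochromes in the repressor complex. Per1 (ENSMUSG00000020893, chr11:69095108-69109965) was at 8.47, 8.49, 8.21 and 8.19 in WT, at 7.83, 8.28 and 8.48 in p27-/- and at 8.36, 8.72 and 8.49 in the compound mutants. The lowest value was that of p27-/- replicate 1 and the highest that of compound mutant replicate 2, with the rest in between in all genotypes. The difference between p27-/- and WT was -0.14 ± 0.15 and that between the mutants 0.33 ± 0.16 (adjusted p = 0.597 and 0.780 in limma).

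Per2 (ENSMUSG00000055866, chr1:91415977-91459351) varied least of the 3 period genes, over 0.64 log2 units. It was at 7.34, 7.45, 7.44 and 7.18 in WT, 7.24, 7.09 and 7.05 in p27-/- and 7.49, 7.35 and 6.86 in the compound mutants, with both extremes in the last group. Differences from WT were -0.23 ± 0.14 and -0.12 ± 0.14 (adjusted p = 0.355 and 0.709 in limma).

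Per3 (ENSMUSG00000028957, chr4:150997018-151044707) was more variable. WT samples gave 9.68, 10.45, 10.30 and 10.49, p27-/- samples 10.04, 10.27 and 10.08, and compound mutant samples 10.85, 10.87 and 10.14. Replicates 1 and 2 of the compound mutants had the highest levels, and replicate 3 of that group was among the p27-/- values. The difference between compound mutants and p27-/- was 0.49 ± 0.21 (1.41-fold) with an adjusted p of 0.681, and that between compound mutants and WT was 0.39 ± 0.20 with an adjusted p of 0.322, in limma.

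Nr1d1 (ENSMUSG00000020889, chr11:98767932-98775377) had the widest spread of the 10 members. WT samples measured 10.21, 9.57, 10.24 and 10.33, p27-/- samples 9.07, 10.50 and 9.43, and compound mutant samples 10.20, 9.69 and 9.54. The lowest and the highest of the 10 samples were both p27-/-, a 2.70-fold span. The group differences, -0.42 ± 0.28 for p27-/- and -0.28 ± 0.28 for compound mutants against WT, were within this spread (adjusted p = 0.380 and 0.644 in limma), and the interval for p27-/- ran from -1.01 to 0.17. Single p27-/- samples moved that difference, to -0.12 without p27-/- replicate 1 and to -0.84 without p27-/- replicate 2 (adjusted p = 0.859 and 0.0536 in limma). Nr1d1 overlaps the neighboring gene Thra on the opposite strand, and the counting did not use strand, so reads in the shared stretch cannot be assigned with certainty.

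Nr1d2 (ENSMUSG00000021775, chr14:18204056-18239106), the other REV-ERB gene, was at 8.80, 9.37, 9.36 and 9.33 in WT, at 8.86, 9.36 and 8.83 in p27-/- and at 9.47, 9.51 and 9.15 in compound mutant ILs. WT replicate 1 and p27-/- replicates 1 and 3 formed a low set. The differences were -0.20 ± 0.16 for p27-/- against WT and 0.36 ± 0.17 between the mutants (adjusted p = 0.483 and 0.765 in limma).

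Dbp (ENSMUSG00000059824, chr7:45705100-45710203), the output factor, gave 6.81, 6.55, 7.10 and 6.92 in WT, 6.66, 7.07 and 6.36 in p27-/- and 7.33, 7.04 and 6.58 in the compound mutants. Samples of all genotypes were interleaved over a 1.97-fold span. Dbp differed from WT by -0.15 ± 0.20 in p27-/- and by 0.14 ± 0.20 in the compound mutants (adjusted p = 0.684 and 0.763 in limma).

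**Figure D2:**
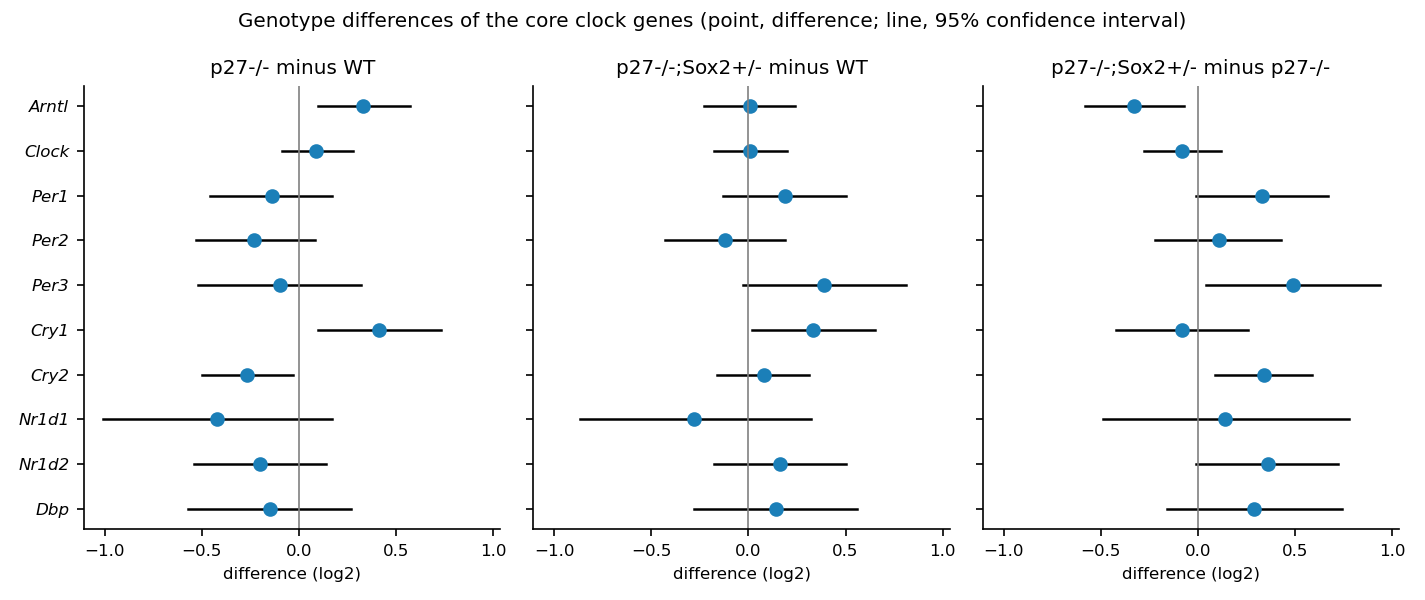
Differences in normalised level (log2) between genotypes for the 10 clock genes, 1 panel per comparison, with points for the difference fitted by limma and lines for its unadjusted 95% confidence interval. Arntl and Cry1 lie above 0 and Cry2 below 0 in p27-/- minus WT, and Nr1d1 has the widest intervals; no difference passed the adjusted threshold.

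Set in order of their means, p27-/- was the highest genotype for Arntl, Clock and Cry1, and the compound mutants were the highest for Per1, Per3, Cry2, Nr1d2 and Dbp, while WT was the highest for Per2 and Nr1d1. No neighbors in these orders differed beyond their spread at the adjusted threshold. Several members instead varied from mouse to mouse within genotypes. The median SD within genotypes over all tested genes was 0.152. Nr1d1 had an SD of 0.49 (percentile 99.0), Per3 of 0.34 (96.8), Dbp of 0.32 (95.7), Nr1d2 of 0.26 (91.0), Cry1 of 0.23 (85.8) and Per1 of 0.23 (85.0). Per2 was at percentile 77.1, and Arntl and Cry2, with an SD of 0.15 each, were close to the middle at 51.6 and 48.1.

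**Figure D3:**
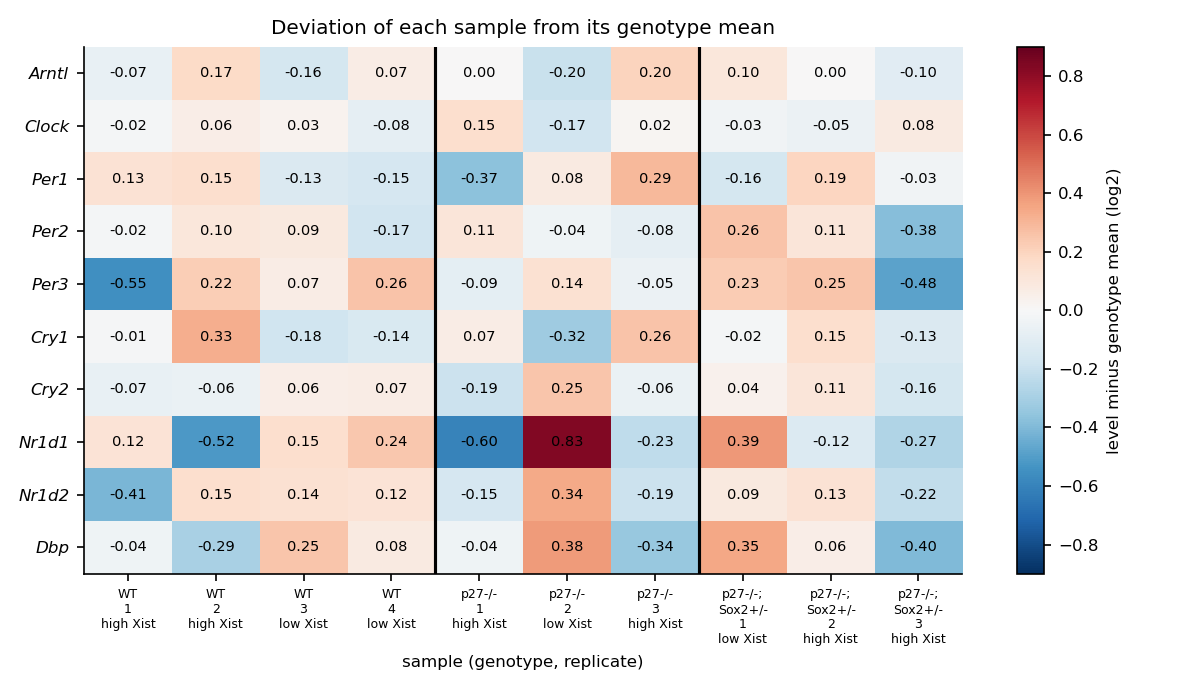
Deviation of each sample (columns) from the mean of its genotype for each clock gene (rows), in log2 units, with red above and blue below the mean and black lines between genotypes. The largest deviations belong to Nr1d1, at 0.83 in p27-/- replicate 2 and -0.60 in p27-/- replicate 1, and Dbp has its highest value of each genotype in a low-Xist sample.

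Covariation was measured on the deviations of the 10 samples from their genotype means, with exact p-values from all 864 orderings of samples within genotypes (two-sided, 45 pairs of members, p-values not adjusted). Pearson's r was above 0.5 in 10 pairs and below -0.5 in 6 pairs, and 8 pairs had a p under 0.05. The same counts were not made for pairs of other genes, so whether clock genes had more such pairs is unknown. Dbp was used as the anchor because its transcript is a direct output of the loop. Nr1d1 followed Dbp most closely, with r = 0.78 and Spearman's rho = 0.81 (exact permutation p = 0.0312 for each), and r was 0.77 without the 2 samples farthest from the median of Dbp. Cry2 had r = 0.73 and rho = 0.71 (exact permutation p = 0.0706 and 0.0891), and r = 0.79 without those 2 samples. Nr1d2 had r = 0.59 and rho = 0.60 (exact permutation p = 0.0961 and 0.110). The remaining positive values were 0.53 for Per2 and 0.47 for Per3 (exact permutation p = 0.255 and 0.216). Among the r of all tested genes with Dbp, Nr1d1 was at percentile 98.8, Cry2 at 97.8, Nr1d2 at 93.4, Per2 at 90.1 and Per3 at 87.0.

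Negative values came from the activators, Cry1 and Per1. Cry1 had r = -0.61 and rho = -0.62 (exact permutation p = 0.0938 and 0.0903), Clock r = -0.61 and rho = -0.65 (exact permutation p = 0.135 and 0.116) and Arntl r = -0.44 and rho = -0.35 (exact permutation p = 0.281 and 0.434). Per1, in contrast to the other period genes, had r = -0.35 (exact permutation p = 0.440). Among all tested genes these r were at percentile 5.6 for Cry1, 5.7 for Clock, 14.1 for Arntl and 20.3 for Per1. For Arntl the genotypes differed, in that its level was lowest where Dbp was highest in WT and in p27-/-, while in the compound mutants the highest levels of both were in replicate 1.

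When each gene was regressed on Dbp with genotype in the model, 0 of 9 members passed the adjusted threshold in limma, against 0% of the 17267 genes tested. An unadjusted p under 0.05 was found for 4 of the 9 members (Nr1d1, Cry2, Nr1d2 and Cry1) and for 872 of all tested genes, or 5.05%. The slope of Nr1d1 was 1.22 ± 0.29 log2 units per log2 unit of Dbp (unadjusted p = 0.00113, adjusted p = 0.879 in limma), and 21 genes had a smaller p, so that it ranked 22. Leaving out 1 sample gave slopes from 0.79, without p27-/- replicate 2, to 1.52. Slopes of Per3, Nr1d2, Cry2 and Per2 were 0.51, 0.49, 0.35 and 0.34, and those of Cry1, Per1, Arntl and Clock were -0.45, -0.26, -0.21 and -0.20. With Nr1d1 or Arntl as the anchor in place of Dbp, no member was called either.

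Pairs that did not involve Dbp reached higher values, and those named here were picked after the values were seen. Clock moved against Cry2 with r = -0.91 and rho = -0.87 (exact permutation p = 0.0116 and 0.0220) and against Nr1d1 with r = -0.89 and rho = -0.84 (exact permutation p = 0.0208 for each). Leaving out the 2 samples farthest from the median of Cry2 gave -0.87 for the former pair, and leaving out the 2 farthest in Clock gave -0.84 for the latter. Per3 and Nr1d2 had r = 0.86 and rho = 0.64 (exact permutation p = 0.0197 and 0.0532), with 0.76 after leaving out the 2 samples farthest in Per3. Arntl and Cry1, both known targets of REV-ERB repression, had r = 0.82 and rho = 0.76 (exact permutation p = 0.0231 and 0.0544), with 0.75 after leaving out the 2 samples farthest in Cry1. Nr1d1 had r = -0.47 with Arntl and -0.74 with Cry1 (exact permutation p = 0.351 and 0.066). For Nr1d2 the values were -0.12 with Arntl and -0.26 with Cry1 (exact permutation p = 0.784 and 0.608). Between the REV-ERB genes r was 0.46, and between Per1 and Per2 it was -0.15.

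**Figure D4:**
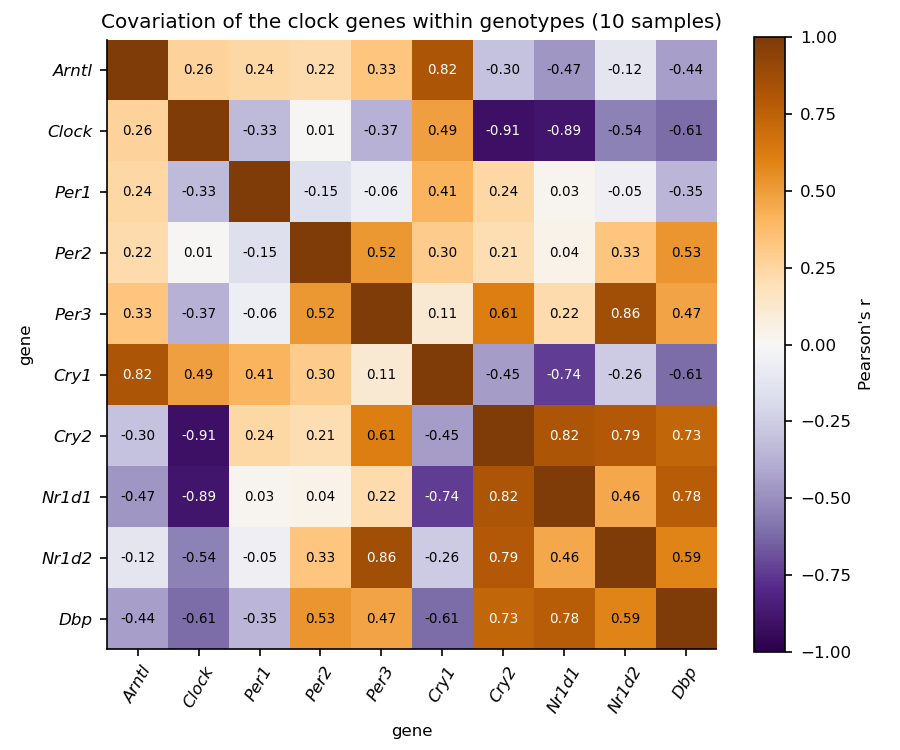
Pearson's r between every pair of the 10 clock genes, computed over 10 samples on log2 deviations from genotype means, with orange for positive and purple for negative values. Nr1d1, Nr1d2, Cry2 and Dbp share positive values from 0.46 to 0.82, and Clock is negative with all 4, from -0.54 to -0.91.

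The genes whose levels were most like that of Dbp, by the p of the slope among genes with a symbol, included markers of sex. On the positive side they were Fam107a, Ddx3y, Alox12e, Eif2s3y and Kdm5d, of which Ddx3y, Eif2s3y and Kdm5d are Y-linked. On the negative side they were 5530601H04Rik, Xist, Cyp51, Fosl2 and B2m, of which the first 2 are X-linked. Fam107a had r = 0.96 with Dbp over the 10 samples within genotypes and the smallest adjusted p (0.0923 in limma), and 5530601H04Rik had r = -0.97 (adjusted p = 0.163 in limma). No slope passed the threshold.

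Dbp was higher in every low-Xist sample than in every high-Xist sample of the same genotype. The low-Xist samples had Dbp levels of 6.92 to 7.33 and the high-Xist samples of 6.36 to 7.04, with differences between means of 0.33 in WT, 0.56 in p27-/- and 0.52 in compound mutants. Nr1d1 was ordered the same way, at 10.20 to 10.50 in low-Xist and 9.07 to 10.21 in high-Xist samples, with differences of 0.40, 1.25 and 0.58. These 2 of 10 members had this complete order, compared with 2.95% of all tested genes, and no member had the reverse order, which 2.71% of genes had. This split was made after the values were seen. In a regression of every gene on Xist within genotypes, 0 of 10 members passed the threshold, against 0.0637% of 17267 genes, which were 11 genes and included Kdm5d, Uty, Ddx3y and Eif2s3y. Nr1d1 had an unadjusted p of 0.000191 there (adjusted p = 0.174 in limma) and Dbp of 0.00173 (adjusted p = 0.447 in limma).

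The relation of Nr1d1 to Dbp was also examined among samples of the same kind. With Xist as a covariate, the slope of Nr1d1 on Dbp was 0.39 ± 0.49 (limma, adjusted p of 1), less precise than the slope of 1.22 without it, and the difference between the slopes was not tested. There were 4 pairs of samples that shared both genotype and Xist range. Nr1d1 and Dbp moved in the same direction in 2 of these 4 pairs, in the high-Xist WT pair (0.64 and 0.25) and in the high-Xist compound mutant pair (0.15 and 0.46). In the low-Xist WT pair and the high-Xist p27-/- pair they moved apart, with -0.09 and -0.37 for Nr1d1 where Dbp differed by 0.18 and 0.30. Nr1d2 moved with Dbp in 3 of the 4 pairs and Cry2 in 1. The sex of each mouse is not given in the labels. The numbers of females and males that the paper lists per genotype equal those of high-Xist and low-Xist samples, so the comparisons by Xist are comparisons by inferred sex. The time of dissection is not given either, and its part in these values was not tested.

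Prl, which encodes prolactin and marks lactotrophs of the adjoining anterior lobe, was ordered against Nr1d1, a pattern picked after the values were seen. Prl was at 13.09, 17.54, 12.55 and 11.40 in WT, 16.34, 11.43 and 14.37 in p27-/- and 12.48, 12.94 and 14.33 in the compound mutants. These levels were lower in every low-Xist sample than in every high-Xist sample of the same genotype. An order by Prl therefore partly repeats the Xist split described above. In each genotype, the order of the samples by Nr1d1 was exactly the reverse of their order by Prl, which was true of 1 of 10 members and of 0.266% of tested genes. The other hormone genes did not share it, since Gh had the reverse order in 1 of 3 genotypes and Fshb and Tshb in 0. The summed level of the 4 measured anterior lobe hormone genes of 5 listed (Gh, Prl, Fshb and Tshb) to which Prl and Gh contributed most, ranged from 13.05 to 17.70 in WT, from 12.46 to 16.47 in p27-/- and from 13.06 to 14.55 in the compound mutants. Within genotypes, Pearson's r of this sum was -0.90 with Nr1d1 and -0.67 with Dbp. The sum of the endothelial markers had -0.26 and -0.64, and that of the melanotroph markers 0.30 and 0.06. In the same order, mural and fibroblast markers had -0.52 and -0.36, and stem cell markers 0.40 and 0.51. Macrophage markers had 0.34 and -0.03, and posterior lobe markers 0.15 and -0.11. The part of anterior lobe tissue in the Nr1d1 and Dbp values was not tested. The summed melanotroph markers, by comparison, covered 18.10 to 19.08, 18.66 to 19.07 and 18.45 to 18.63.

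**Figure D5:**
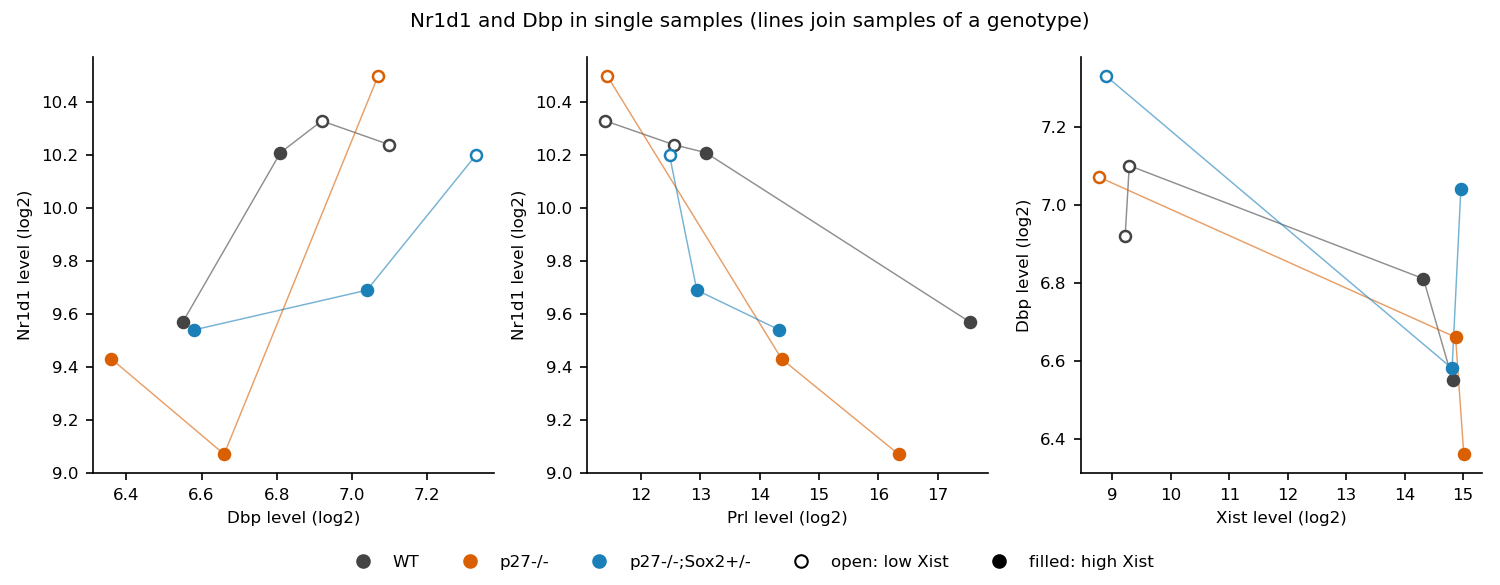
Normalised levels (log2) of Nr1d1 against Dbp (left), Nr1d1 against Prl (middle) and Dbp against Xist (right) in the 10 IL samples, colored by genotype, with open symbols for the 4 low-Xist samples and thin lines joining samples of a genotype. Nr1d1 falls along Prl in each genotype, and Dbp is at 6.92 or above in all 4 low-Xist samples.

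The wider clock machinery was examined with lists of its genes, grouped by role. Of 11 further clock transcription factors, all tested, 0 passed the threshold in any of the 3 genotype comparisons or with Dbp (limma, adjusted over all genes), and 3, 2, 4 and 1 had an unadjusted p under 0.05, where 24.1%, 17.8%, 6.65% and 5.05% of all tested genes had. Npas2, a paralog of Clock, measured 7.98 to 8.14 in WT and 8.22 to 8.50 in p27-/-, a difference of 0.33 with an adjusted p of 0.058 in limma. Rorb was at 11.17 to 11.49 in WT and at 11.64 to 11.72 in the compound mutants, 0.35 higher with an adjusted p of 0.057 in limma. Of 12 genes for clock protein kinases and their turnover machinery, 0 passed in any comparison. Of all tested genes, 7.78%, 2.71% and 0.145% passed in the 3 genotype comparisons. In p27-/- against WT, 10 of the 12 had a positive difference, with a median of 0.11, compared with 0.01 over all tested genes. An unadjusted p under 0.05 was found for 4 of the 12 in limma there, where 24.1% of all tested genes had one. Csnk2a1, a catalytic subunit of casein kinase 2, came closest in that comparison, with a difference of 0.29 and an adjusted p of 0.0504 in limma. Among 8 clock output genes 0 passed, against the same shares of all tested genes, and Usp2, a deubiquitinase, differed by 0.46 between the mutants (adjusted p = 0.285 in limma).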

How the data were processed

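RNA was taken from dissected ILs, 1 library per mouse, and converted with a kit that does not mark strand. The authors aligned reads with STAR (2.5.2a), estimated gene counts with RSEM (1.3.30) against Ensembl GRCm38 and normalised them with DESeq2 (1.18.1). The deposited values are on a log2 scale, and the transformation is not named in the sources used here, so whether differences of low genes are understated is unknown. Symbols and coordinates came from reference tables, the latter of GRCm38.p6.

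Genes with a mean of at least log2(10) were tested in limma (3.58.1, R 4.3.3) with a mean per genotype over all 10 samples and a mean-variance trend, with Benjamini-Hochberg adjustment over all 17268 genes and a threshold of 0.05. Slopes on Dbp, or on Xist, were fitted with genotype in the model. Permutation tests were exact within genotypes. The limma code was tested on simulated data with 200 changed genes. In p27-/- against WT, 27.5% of differences of 0.5 and 95% of differences of 1 were recovered. For slopes on Dbp, 0% at 0.5 and 62.5% at 1 were recovered. A count of 0 members called therefore does not exclude differences or slopes of about 0.5. The changed genes were drawn at random from all tested genes, whose median SD within genotypes was 0.152. For more variable members, such as Nr1d1 with an SD of 0.49, larger differences are not excluded either. The interval of Nr1d1 in p27-/- against WT reached -1.01. Members and gene lists were chosen with earlier results of these data known. Named genes were all members, list genes past the threshold or closest to it, and the 5 genes of smallest p in each direction of the slope on Dbp. The alternatives were other filters, scalings, weights and covariates, a replicate block and leaving out each sample.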

Additional observations from a re-analysis of the deposited data

Results flagged for a closer look

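WT samples were examined for a value far from the others, since groups of 3 are too small for Dixon's ratio, the gap to the nearest sample divided by the range. Of 10 members, 2 exceeded the critical value for 4 samples, where chance gives about 0.5 if the samples are of 1 kind. The WT samples were of both Xist kinds, and the share of all tested genes that exceed this value was not computed. Whether 2 of 10 is more than usual is therefore unknown. For Nr1d2 the ratio was 0.937, with WT replicate 1 at 8.80 and the other WT samples between 9.33 and 9.37. For Nr1d1 it was 0.837, since WT replicate 2 measured 9.57 while its 3 companions ran from 10.21 to 10.33. Per3, too, had its lowest level of all 10 samples in WT replicate 1 (9.68), and Prl its highest in WT replicate 2 (17.54).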

How the results depend on the processing

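The count of members past the threshold was 0 in all 3 genotype comparisons and with Dbp under every alternative, except in p27-/- against WT, where leaving out 1 sample gave 0 to 1, the call being Cry1 without WT replicate 2. With the replicate number as a block it was 0 in all. Same-numbered samples did not deviate together (r from -0.238 to 0.182). They also differed in Xist range between genotypes, so this cannot show whether the numbers pair the mice. Of 741 values of members under alternatives, 717 kept direction and side of the threshold and 23 changed sign, and the cause was not tested. For compound mutants against WT, Arntl was -0.028 and Clock -0.005 with array weights, -0.007 and -0.009 with quantile normalization, and -0.010 and -0.005 with Xist as a covariate, and Clock was -0.012 with the replicate block. Between mutants, Cry1 was 0.013 and Nr1d1 -0.004 with array weights, and the slope of Cry1 on Dbp was 0.014 with Xist as a covariate. Leaving out 1 sample gave, for compound mutants against WT, -0.048 to 0.062 for Arntl, -0.026 to 0.038 for Clock, -0.035 to 0.341 for Dbp (negative without compound mutant replicate 1) and -0.251 to 0.067 for Per2 (positive without compound mutant replicate 3), for p27-/- against WT, -0.286 to 0.042 for Per1 (without p27-/- replicate 1) and -0.338 to 0.019 for Dbp (without p27-/- replicate 3), and between mutants, -0.158 to 0.558 for Nr1d1, -0.241 to 0.050 for Cry1 and -0.023 to 0.295 for Per2. Over all genes, the 1343, 468 and 25 calls of the 3 comparisons became 831, 312 and 6 with no filter on low values, 595, 209 and 2 with the replicate block (8 with Dbp, against 0), in which WT replicate 4 is alone in its block and drops out of the differences, compared with 690, 219 and 10 on leaving out that sample alone, 807, 260 and 45 with only the groups compared, 1764, 1240 and 283 with array weights, 8 between mutants with no trend, 15 with quantile normalization, and 403 to 1709, 80 to 658 and 0 to 41 with 1 sample left out. Median centring moved the higher calls in p27-/- against WT from 545 of 1343 to 626 of 1320. Depth is unknown.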

Other observations

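Lists of genes that respond to signals able to reset the clock held no call either. Of 10 glucocorticoid-responsive genes, 0 passed the threshold in any genotype comparison or with Dbp (limma), and 2, 2, 2 and 1 had an unadjusted p under 0.05, where 24.1%, 17.8%, 6.65% and 5.05% of all tested genes had. Klf9, a transcription factor gene that is both induced by glucocorticoids and rhythmic, differed by 0.54 between the mutants (adjusted p = 0.174 in limma). Of 12 immediate early genes 10 were expressed highly enough to be tested, 0 passed, and 2, 3, 0 and 1 had an unadjusted p under 0.05, against the same shares of all genes. Nr4a2, an orphan nuclear receptor gene, was 0.48 above WT in p27-/- and 0.52 above WT in the compound mutants (adjusted p = 0.096 and 0.120 in limma). Among the cell type marker lists, the genes named are those that passed the threshold. They were 1 of 5 melanotroph markers in p27-/- against WT. In each mutant against WT, they were 1 of 4 tested anterior lobe hormone genes and 1 of 4 endothelial genes. Of all tested genes, 7.78% passed in p27-/- against WT and 2.71% in the compound mutants against WT. Pcsk2, which encodes a POMC-cleaving convertase of melanotrophs, rose by 0.53 in p27-/- against WT (adjusted p = 0.035 in limma). Fshb fell by 2.04 on the log2 scale in p27-/- and fell by 2.27 in the compound mutants (adjusted p = 0.028 and 0.029 in limma). The endothelial gene Kdr fell by 0.83 and fell by 0.67, respectively (adjusted p = 0.010 and 0.046 in limma). Other genes of these lists did not all fall. Prl was higher by 0.40 in p27-/- than in WT, the 1 of 4 hormone genes with a positive difference there. Cdh5 was higher by 0.10 in the compound mutants than in WT, the 1 of 4 endothelial genes with a positive difference there. Fshb in WT replicate 1 was at 7.15, inside the ranges of p27-/- (6.37 to 7.26) and of the compound mutants (5.91 to 7.50).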
